A study of Mus musculus with 18 samples.

Results

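The genes described here encode the signalling core of the B cell receptor: Cd79a, Cd79b, Syk, Lyn, Blnk, Plcg2, Cd22 and Ptpn6. They were chosen by name, as the genes with a row of that symbol in the count tables of both sexes, and all 8 were found among 25965 rows. All 8 also passed the filter on low counts in every comparison, where 14017 genes were tested over both sexes together. Each library held polyA RNA of B cells sorted as CD45.2+ B220+ Mac1- from the femur marrow of 1 C57BL/6 mouse aged 12 to 16 months, 18 mice in all. The heterozygous mice were Smchd1 del/+ Vav-Cre T/+, with 5 females and 4 males. The del/del mice were Smchd1 del/del Vav-Cre T/+, again 5 females and 4 males. The heterozygous mice were thus the only controls, and they carried 1 deleted Smchd1 allele and the Cre themselves. Vav-Cre acts throughout blood-forming cells and is not limited to the B lineage. Smchd1 encodes a chromatin protein that takes part in gene silencing, including on the inactive X chromosome.

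The B cell receptor is a membrane immunoglobulin held by a heterodimer of CD79A and CD79B, whose cytoplasmic tails carry the tyrosine motifs that start the signal. The kinase LYN phosphorylates these motifs, the kinase SYK docks on them, and the adaptor BLNK then brings phospholipase PLCG2 to SYK, which leads to calcium release and to NF-kB and NFAT activity. CD22 is a lectin receptor that, once LYN has phosphorylated it, recruits the phosphatase PTPN6 (SHP-1), and this pair dampens the signal. In marrow the pathway is used first by the pre-B cell receptor and later by the mature receptor. Syk, Lyn, Plcg2 and Ptpn6 are also used by myeloid cells.

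Levels are given as CPM, the count scaled to library size with TMM factors, and between genes as RPKM, the same value per kilobase of exon. A gene is said to have risen or fallen where edgeR's quasi-likelihood test gave an adjusted p under 0.05, with Benjamini-Hochberg adjustment over all genes tested. Libraries held 9788112 to 29405395 counts, and the rarest reading of any member was 4313 reads, so counting error was small beside the spread between mice. Smchd1 itself was at 248 ± 17.4 CPM in heterozygous and 141 ± 17.6 in del/del females (SD, n = 5 each), and at 298 ± 21.6 and 177 ± 15.7 in males (SD, n = 4 each). The genotypes did not overlap within a sex. B lineage genes were present in every library (Ms4a1 at a mean of 159 RPKM and Pax5 at 32.1), and T and NK cell markers summed to at most 150 CPM over 9 genes. Neutrophil genes were present in spite of the Mac1- gate: S100a9 ranged from 473 to 3090 RPKM, and 12 myeloid markers summed to between 1016 and 6053 CPM per library. In bulk RNA, fewer cells of a type and less RNA per cell cannot be told apart.

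The promoter sequences of the CD22 and PTPN6 inhibitory pair and of Blnk are shown because, as described below, Cd22 and Ptpn6 varied together between libraries and Blnk differed between the sexes in the opposite direction. Each is the 250 bases before the RefSeq start on GRCm38.p6, read 5′ to 3′ on the gene's strand, and all 3 genes lie on the minus strand. The windows are chr7:30879029-30879278 for Cd22, chr6:124738710-124738959 for Ptpn6 and chr19:40994222-40994471 for Blnk. In the count tables the rows extend to 30880342 for Cd22 and to 40994535 for Blnk. Both of these windows thus lie inside the genes as counted, and distances refer to the RefSeq start only. Capitals mark matches to motifs that were searched on both strands.
Cd22: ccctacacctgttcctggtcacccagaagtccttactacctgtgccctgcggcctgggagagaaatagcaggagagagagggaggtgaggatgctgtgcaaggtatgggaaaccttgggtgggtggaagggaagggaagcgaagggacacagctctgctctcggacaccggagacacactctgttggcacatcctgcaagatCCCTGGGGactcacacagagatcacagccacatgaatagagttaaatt
Ptpn6: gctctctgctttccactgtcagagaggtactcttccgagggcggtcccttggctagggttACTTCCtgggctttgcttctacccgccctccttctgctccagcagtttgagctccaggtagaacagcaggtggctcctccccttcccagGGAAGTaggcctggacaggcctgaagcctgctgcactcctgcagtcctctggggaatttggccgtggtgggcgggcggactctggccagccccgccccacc
Blnk: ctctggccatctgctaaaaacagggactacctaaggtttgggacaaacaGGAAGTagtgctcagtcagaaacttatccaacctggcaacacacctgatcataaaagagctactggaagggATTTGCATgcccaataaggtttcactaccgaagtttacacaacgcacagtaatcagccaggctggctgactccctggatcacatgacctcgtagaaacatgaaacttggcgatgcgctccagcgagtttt
The motifs searched were the octamer ATTTGCAT, the Ets core GGAAGT, the palindromic EBF core CCCNNGGG and TATAAA. None of them overlapped another in these windows. The Blnk window held the octamer 130 bases before the start and the Ets core 201 bases before it. The Ptpn6 window held the Ets core at 2 places and the Cd22 window held the EBF core 48 bases before the start. Among 32851 RefSeq promoters of this length, 1.6% held the octamer, 19.7% the Ets core, 11.8% the EBF core and 12.4% TATAAA. A match describes the letters only. RefSeq promoters were found for 6 of the 8 genes. Those of Cd79a (1 Ets core, 54 bases before the start), Syk and Plcg2 are not printed, and Cd79b and Lyn were not matched.

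The 2 receptor chains stood far above the rest of the pathway. Per exon length, Cd79b had the 8th highest level of 13814 genes at 1238 ± 69.8 RPKM, and Cd79a the 15th at 897 ± 117 RPKM (SD over 18 libraries). Ptpn6 followed at 268 ± 36.1, Syk at 217.3 ± 22.2, Cd22 at 155, Lyn at 123, Plcg2 at 116 and Blnk at 81.5 RPKM. The ranges of neighbours in this order overlapped over libraries except between Cd79a and Ptpn6 and between Plcg2 and Blnk. Within each library Cd79b lay above Cd79a, by 1.16 to 1.68 times in RPKM. Together the 8 genes took 0.734 to 0.88% of all counts. Syk, Blnk, Ptpn6 and Plcg2 each exceeded the closest relative of the same family. Syk was 60.4 times Zap70, its T cell counterpart, by the median ratio of RPKM over libraries. The corresponding ratios were 20.2 for Blnk over Lcp2, the T cell adaptor SLP-76, 13.2 for Ptpn6 over Ptpn11 and 6.79 for Plcg2 over Plcg1. Cd22 and Siglecg, another inhibitory lectin of B cells, were at similar levels, with a ratio of 0.537 to 1.75 and a median of 0.898.

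Lyn was not the only abundant kinase of its family. Blk, the Src family kinase named for B lymphoid cells, was at 159 ± 11.5 RPKM and Lyn at 123 ± 11.5 (SD over 18 libraries), with no overlap of their ranges. Fyn was at 26.9 RPKM, and Lck, best known from T cells, at 18.5 RPKM. Fgr, which is also a kinase of myeloid cells, was at 13.5 RPKM and ranged from 8.43 to 27.1. Myeloid markers were present as given above.

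**Figure D1:**
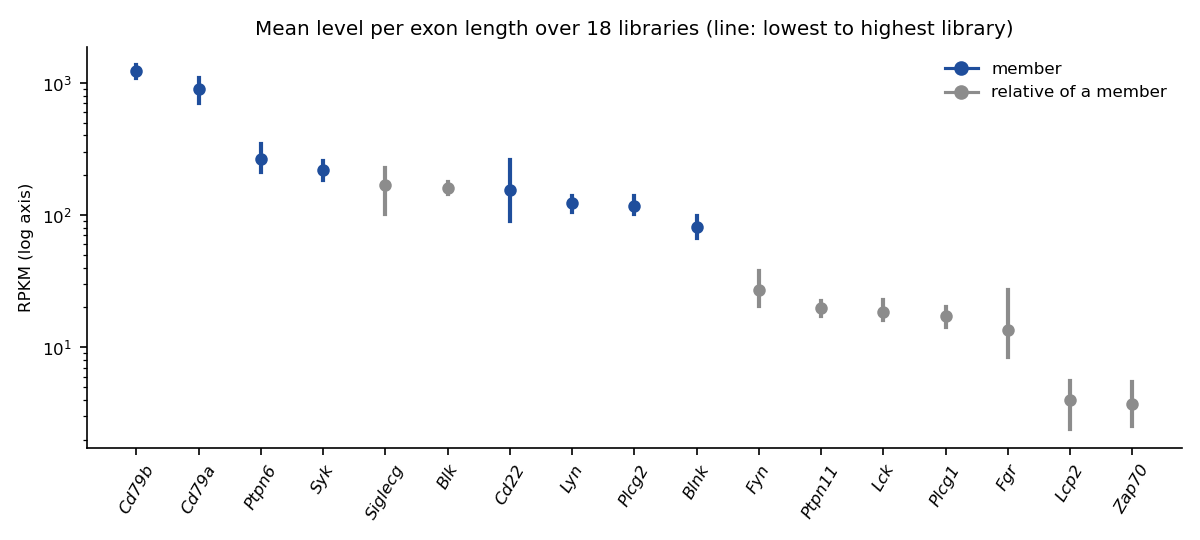
Mean RPKM (log axis) over 18 libraries for the 8 members (blue) and for relatives of members (grey), with lines from the lowest to the highest library. Cd79b and Cd79a lie above all others, and Zap70 and Lcp2 lie lowest, at 3.74 and 4.01 RPKM.

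Loss of the second Smchd1 allele was compared with heterozygosity in each sex. None of the 8 genes rose or fell in either sex, and the estimates bound any change to a small size for most of them. In females 0 of 8 were called against 0.252% of all genes, and in males 0 of 8 against 0.119%. No member's genotype groups were free of overlap, against 1.05% of genes in females and 1.97% in males. At an unadjusted p under 0.05, edgeR held none of the members, against 4.30% of genes in females and 3.34% in males, and DESeq2 and limma voom also called 0 of 8 in both sexes.

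For the receptor chains, Cd79a read 1127, 1145, 1152, 1265 and 1161 CPM in heterozygous females and 1118, 1314, 1032, 1178 and 1230 in del/del females. The heterozygous values lay inside the range of the del/del values. Cd79b was at 1743 ± 95.7 CPM in heterozygous and 1749 ± 143 in del/del females (SD, n = 5 each). The log2 differences were 0.00 for both chains with 95% intervals of -0.18 to 0.18. In males the log2 difference was -0.02 (-0.18 to 0.13) for Cd79a and -0.05 (-0.20 to 0.11) for Cd79b.

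The kinases were as close. Syk read 2206, 1944, 1902, 1910 and 1929 CPM in heterozygous females and 2060, 2410, 1919, 2039 and 1948 in del/del females. Each group had 1 library above the rest, and the groups overlapped. In males Syk fell into high and low libraries in both genotypes, with 1834, 2251, 1928 and 2212 CPM in heterozygous and 1720, 2309, 1743 and 2351 in del/del mice. The log2 difference of Syk was 0.06 (95% interval -0.13 to 0.25) in females and -0.01 (-0.29 to 0.27) in males. Lyn differed by 0.01 (-0.18 to 0.19) in females and by -0.08 (-0.26 to 0.10) in males.

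Of the adaptor and the phospholipase, Blnk had the larger estimate. Blnk read 516, 533, 550, 591 and 566 CPM in heterozygous females and 481, 577, 463, 589 and 425 in del/del females. In del/del females 3 libraries lay below every heterozygous value and the other 2 lay within the heterozygous range, a log2 difference of -0.13 (-0.35 to 0.09). In males the difference was -0.05 (-0.19 to 0.09). Plcg2 was the steadiest gene of the set, at 460 ± 18.1 and 474 ± 17.7 CPM in heterozygous and del/del females and 553 ± 33.3 and 532 ± 20.7 in males. Its log2 difference was 0.04 (-0.11 to 0.18) in females and -0.05 (-0.20 to 0.11) in males.

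The inhibitory pair had the largest female estimates, and Cd22 had the widest interval in each sex. Cd22 read 608, 456, 704, 499 and 537 CPM in heterozygous females and 674, 482, 613, 510 and 882 in del/del females. Ptpn6 read 728, 590, 647, 664 and 654 CPM and 760, 656, 783, 634 and 895 in the same order. The fifth del/del female was the highest female library for both genes and the lowest for Blnk, and the groups overlapped for each. The log2 difference was 0.17 (-0.18 to 0.52) for Cd22 and 0.18 (-0.04 to 0.39) for Ptpn6 in females, and 0.09 (-0.28 to 0.46) and -0.02 (-0.25 to 0.22) in males. A rise of Cd22 by as much as 1.43-fold in females was not excluded by these intervals.

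**Figure D2:**
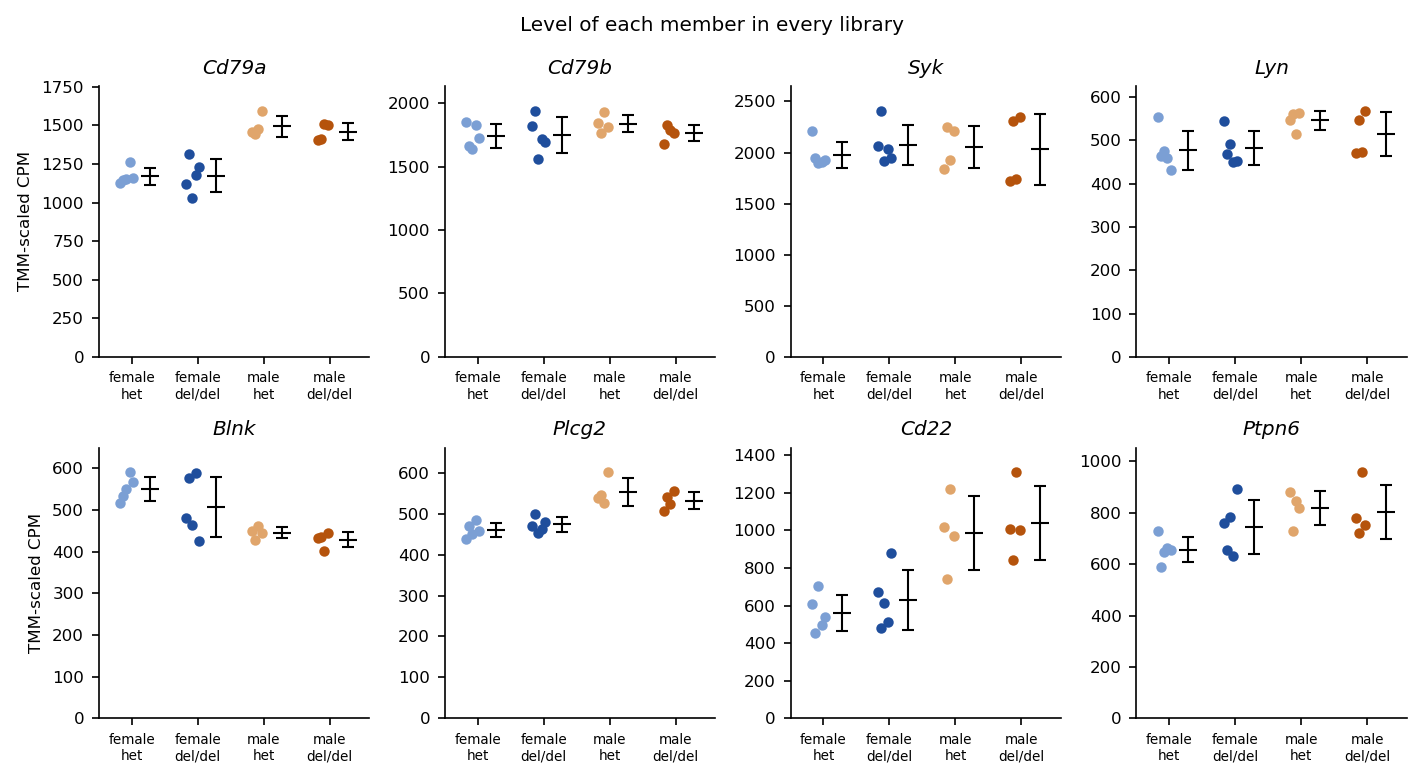
TMM-scaled CPM of each member in every library (points) by sex and genotype, with the group mean and SD (black), on axes that start at 0. Genotype groups of a sex overlap for every member, while the males lie above all females for Cd79a and Plcg2.

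Fitting both sexes together, with sex as a term, narrowed the intervals. Of the 8 genes 0 were called, against 0.556% of all genes, and 0 had an unadjusted p under 0.05, against 6.76%. The genotype fold change was 0.992 (95% interval 0.923 to 1.07) for Cd79a, 0.984 (0.917 to 1.06) for Cd79b and 0.999 (0.939 to 1.06) for Plcg2. It was 1.02 (0.918 to 1.14) for Syk, 0.98 (0.9 to 1.07) for Lyn and 0.938 (0.861 to 1.02) for Blnk. The inhibitory pair kept the highest upper bounds, with 1.09 (0.916 to 1.31) for Cd22 and 1.06 (0.954 to 1.19) for Ptpn6. The median log2 difference of the members was -0.01 and that of all tested genes 0.00. Whether the genotype difference itself differed between the sexes was tested with an interaction term, which edgeR called for 0 of 8 members and for 0% of all genes. At an unadjusted p under 0.05 that term held 0 members and 1.45% of genes, and DESeq2 called 0 members and 4 genes. In the authors' deposited table, none of the 8 genes had an FDR under 0.05, the lowest being 0.976 in females and 1 in males.

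The rest of the pathway was read from 83 other genes listed by role, of which 82 were tested and Pirb, an inhibitory receptor, was not. None was called between genotypes in females, in males or over both sexes by edgeR, DESeq2 or limma voom. At an unadjusted p under 0.05, edgeR's test held 2 of them in females, 3 in males and 6 of 82 over both sexes, beside the 4.30%, 3.34% and 6.76% of all genes given above. Among the 23 proximal kinases and adaptors, the smallest p over both sexes belonged to Btk, the kinase that activates PLCG2, with a log2 difference of 0.09 ± 0.05 (SE, adjusted p = 0.801), followed by Vav3 (-0.13), Lat2 (0.20) and Pik3ap1 (-0.09). Among 19 inhibitors, Fcgr2b, the inhibitory Fc receptor, was at 0.24 ± 0.09 (adjusted p = 0.563), Dok2 at -0.47, Lair1 at 0.48 and Ptpn22 at 0.61. Of 26 genes of the downstream branches, Prkcb, which links PLCG2 to NF-kB, was at -0.11 ± 0.05 (adjusted p = 0.694), Rel at 0.15, Rasgrp3 at 0.26 and Nfatc2 at 0.32. Of 14 genes induced by receptor signalling, 11 had a positive estimate, with a median log2 difference of 0.22 against 0.00 for all genes. None of these passed: Nfkbid was at 0.22 ± 0.10 (adjusted p = 0.678), Cd69 at 0.25, Egr3 at 0.39 and Junb at 0.37. The surrogate light chain genes of the pre-B cell receptor did not pass either, with Vpreb1 at -0.27, Igll1 at -0.24 and Vpreb2 at -0.10, nor did the light chain gene Iglc2 at 0.27 ± 0.11 (adjusted p = 0.576). Of 9 immunoglobulin genes listed, only these 4 had a row, and the others were not tested. Cell markers had estimates away from 0 in the same comparison. Over both sexes 12 of 12 pro-B and pre-B markers (median log2 difference -0.26), 8 of 8 cycling genes (-0.20) and 8 of 8 erythroid markers (-0.96, with 7 at an unadjusted p under 0.05) had negative estimates. Of the myeloid markers 10 of 12 were positive (median 0.23), as were 11 of 13 mature B cell markers (0.10). Of the plasmacytoid dendritic cell markers, which share Dntt with the pro-B and pre-B markers, 10 of 12 were positive (0.37). Among all of these edgeR called 1 gene, the dendritic cell marker Il3ra, at 0.55 (adjusted p = 0.00111). The part of these cells in the estimates of the pathway genes was not tested.

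Between the sexes the members differed more. Females and males were deposited in separate tables with differently named columns, so sex and table cannot be told apart. In heterozygous mice 5 of 8 members were called, against 22.7% of all genes, and 4 of 8 had no overlap between the sexes, against 23.7%. The count over all genes was 3185, and it was between 2115 (without heterozygous male 3) and 3630 (without del/del female 5) when 1 library was left out. Cd79a, Plcg2, Cd22 and Ptpn6 were lower in females (11.9% of all genes were), and Blnk was higher (10.8% were). The median log2 difference, female minus male, was -0.23 over the members and -0.01 over all genes.

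Cd22 differed most. Heterozygous males read 1017, 742, 1222 and 971 CPM, all above the highest heterozygous female at 704. The log2 difference was -0.82 ± 0.18 (SE), a fold of 0.568 (95% interval 0.438 to 0.735), with an edgeR adjusted p of 0.00375. Its partner Ptpn6 read 880, 728, 847 and 817 CPM in heterozygous males, where the lowest male fell just under the highest female at 728.3. The Ptpn6 difference of -0.32 ± 0.11 had an edgeR adjusted p of 0.0373, and the call was lost in 8 of 18 fits that each left out 1 library, where the adjusted p reached 0.102. Losing the call followed from leaving out heterozygous female 2, 3, 4 or 5, del/del female 1, or heterozygous male 1, 3 or 4.

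The receptor chains parted from each other. Cd79a read 1459, 1442, 1479 and 1596 CPM in heterozygous males, above every female, and the log2 difference was -0.35 ± 0.07 (edgeR adjusted p = 0.00277). Cd79b was at 1840 ± 67.8 CPM in heterozygous males against 1743 ± 95.7 in females, a difference of -0.08 ± 0.07 (edgeR adjusted p = 0.469). Accordingly the RPKM ratio of Cd79b to Cd79a was 1.4 to 1.68 over the 10 female libraries and 1.16 to 1.33 over the 8 male libraries, with no overlap. This ratio was singled out after its values were seen and was not tested.

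Past the receptor, Plcg2 read 539, 545, 527 and 602 CPM in heterozygous males and at most 485 in heterozygous females, a log2 difference of -0.27 ± 0.06 (edgeR adjusted p = 0.00531). Blnk went the other way, with 449, 428, 461 and 444 CPM in heterozygous males, below the lowest heterozygous female at 516, and a difference of 0.31 ± 0.09 (edgeR adjusted p = 0.0169). The kinases did not pass. Lyn was at -0.20 ± 0.08 (edgeR adjusted p = 0.0989), and passed without heterozygous female 1 (adjusted p = 0.0319), while Syk was at -0.06 ± 0.11 (95% interval -0.28 to 0.17).

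In del/del mice, compared within the same fit of 18 libraries and so with the same estimate of spread, 3 of 8 members were called between the sexes, against 24.0% of all genes. These 3 were among the 5 called in heterozygotes and had the same direction: Cd79a at -0.31 ± 0.07 (edgeR adjusted p = 0.00519), Cd22 at -0.72 ± 0.18 (0.00737) and Blnk at 0.24 ± 0.09 (0.0482). Plcg2, at -0.17 ± 0.06, had an adjusted p of 0.0547, although all del/del males lay above all del/del females. Ptpn6 was at -0.11 ± 0.11 (adjusted p = 0.494). Groups without overlap were found for Cd79a and Plcg2 among the 8, against 16.2% of all genes. Over all 10 females and 8 males, Cd79a spanned 1032 to 1314 CPM in females and 1408 to 1596 in males, and Plcg2 spanned 438 to 500 and 508 to 602. These 2 genes had no overlap, against 6.51% of all genes.

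**Figure D3:**
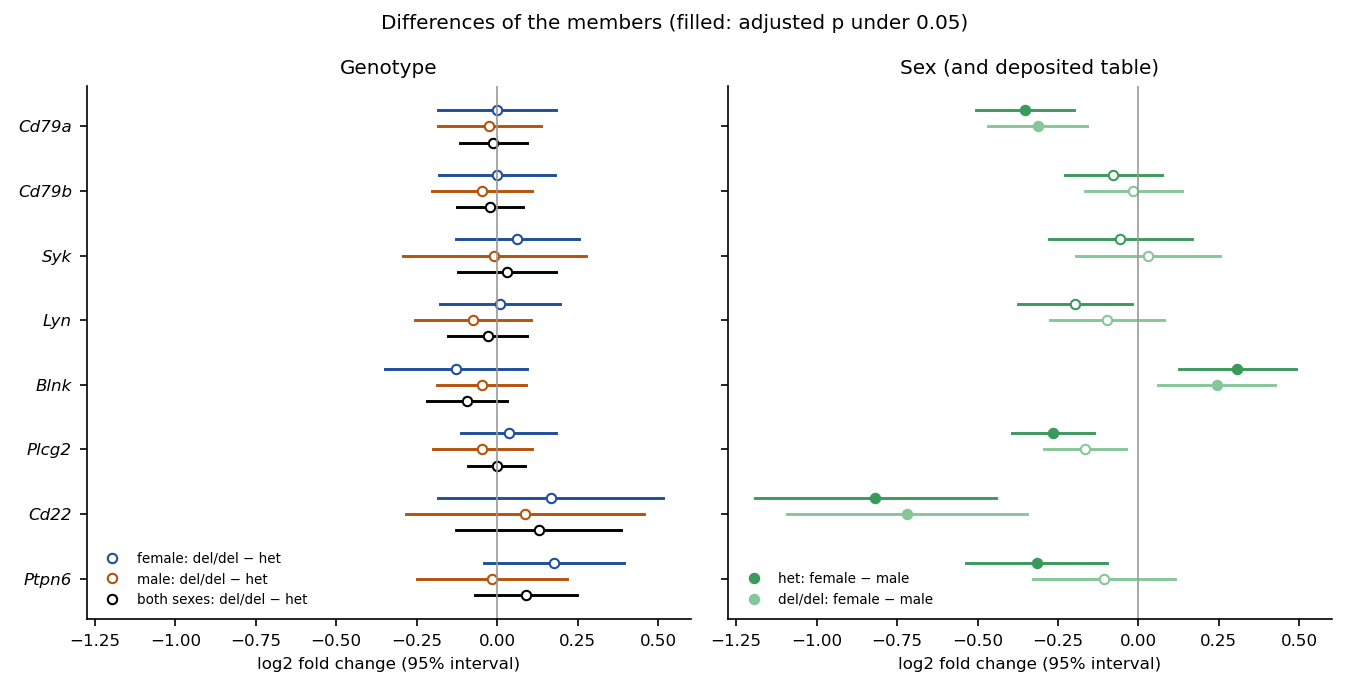
Log2 fold change of each member with its 95% interval, for genotype (left) and for female minus male (right), with filled points where the edgeR adjusted p was under 0.05. All genotype intervals include 0, while Cd79a, Plcg2, Cd22, Ptpn6 and Blnk are filled for sex in heterozygous mice.

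Markers of B cell stage moved with the same comparison. Without Cd22, 13 mature B cell markers summed to 7378 to 10770 CPM in heterozygous females and 15040 to 20930 in heterozygous males, and 12 of 13 were called lower in females. Of all genes, 11.9% were called lower and 10.8% higher in heterozygous females. The largest parts of the sum were Cd74, H2-Aa and H2-Ab1, at means of 5942, 2148 and 1375 CPM over 18 libraries. Fcer2a was at 310 and Cr2 at 153 CPM. Among the del/del mice the sums were 6160 to 13770 CPM in females and 15930 to 21750 in males. The 12 pro-B and pre-B markers summed to 3708 to 4022 CPM in heterozygous females and 2458 to 3123 in males, with 5 of 12 called higher in females. Cycling genes summed to 2877 to 3446 and 1603 to 2044 CPM, with 8 of 8 called higher in females. Plasmacytoid dendritic cells also carry B220. Their 12 markers summed to 3252 to 4099 and 2769 to 3282 CPM, with 9 of 12 called higher in females. The largest parts of this sum were Spib, Ly6d, Dntt and Tcf4, at means of 1579, 669.9, 340.4 and 239.9 CPM over 18 libraries. Siglech was at 200.9 CPM. Dntt is also among the pro-B and pre-B markers, and the sum was not tested as a measure of dendritic cell content. Of the tested plasma cell markers, 4 of 5 were called higher in females too. Myeloid markers summed to 1521 to 3583 and 1836 to 3564 CPM, with 0 of 12 called by edgeR and 0 of 12 at an unadjusted p under 0.05. In del/del mice they summed to 1016 to 5214 CPM in females and 1929 to 6053 in males. There 3 of 12 were called, or 25%, which is near the 24.0% of all genes. All 3 were lower in females, Elane at -1.005, Mpo at -0.97 and Csf1r at -0.62. No gene of these lists was at 0 in all libraries. The part of cell composition in the differences of the members was not tested.

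**Figure D4:**
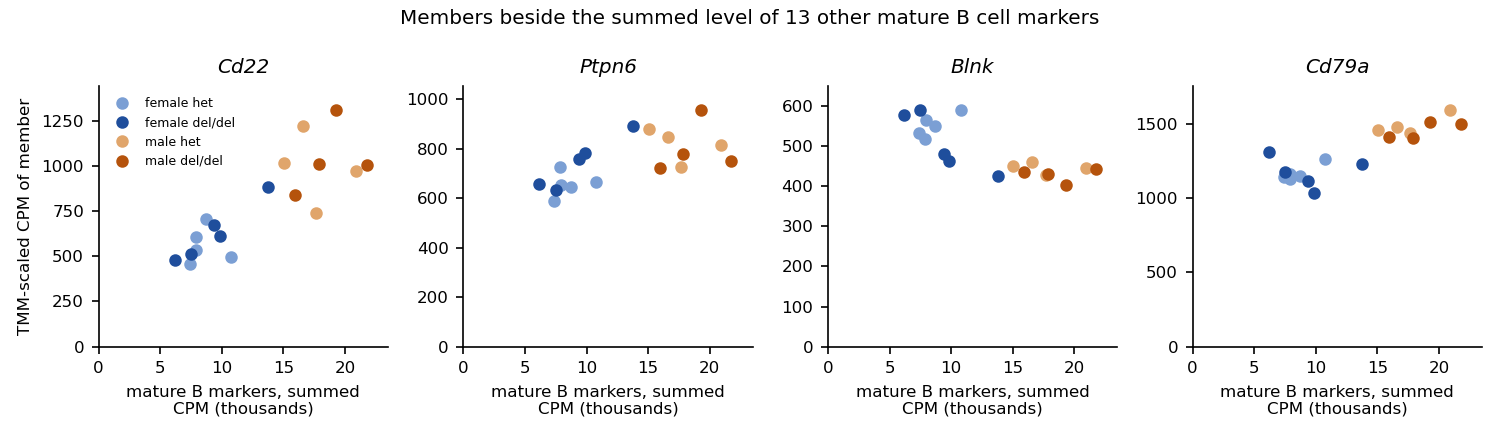
TMM-scaled CPM of Cd22, Ptpn6, Blnk and Cd79a against the summed CPM of 13 mature B cell markers, 1 point a library, coloured by sex and genotype. Cd74, H2-Aa and H2-Ab1 are the largest parts of the sum. Males lie to the right at 15040 CPM or more, and the del/del female at 13770 has the highest Cd22 and the lowest Blnk of the females.

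Many other genes of the pathway also differed between the sexes. In heterozygous mice 37 of 82 were called, or 45.1% beside the 22.7% of all genes, with 33 lower and 4 higher in females. The median log2 difference was -0.21 over these genes. In del/del mice 36 were called, or 43.9% beside 24.0% of all genes, with 29 lower and 7 higher. Of these, 30 genes were called in both with the same direction, 81.1% of the heterozygous calls and 83.3% of the del/del calls. The same share was not computed over all genes, so it is not a result about the pathway. Bank1 and Cr2 are also among the mature B cell markers above.

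Among proximal kinases and adaptors, 12 of 23 were lower in heterozygous females and none was higher. Cr2, the complement receptor CD21 of the B cell co-receptor, had a log2 difference of -1.77 ± 0.33 (edgeR adjusted p = 0.0014), from 71.2 ± 22.0 CPM in females (SD, n = 5) and 244 ± 26.1 in males (SD, n = 4). Bank1, a B cell scaffold for LYN, was at -1.23 ± 0.19 (edgeR adjusted p = 0.00026), Sh3bp2 at -0.85, Lat2 at -0.77, Pag1 at -0.59 and Ptprc, which encodes CD45 and thus both sorted antigens, at -0.58. Grb2 was at -0.42, Vav2 at -0.39, Dapp1 at -0.36, Cd81 at -0.30, Btk at -0.22 and Shc1 at -0.20. Blk (-0.02 ± 0.08) did not pass.

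Inhibitors went both ways, with 4 lower and 3 higher of 19. Lax1, an adaptor that limits antigen receptor signals, was at -1.16 ± 0.25 (edgeR adjusted p = 0.00349), Fcgr2b at -0.68, Grap at -0.55 and Dok1 at -0.24. Lair1, an inhibitory collagen receptor, was higher in females at 1.29 ± 0.32 (edgeR adjusted p = 0.00873), as were the lipid phosphatase gene Inppl1 at 0.80 and Sla2 at 0.44. Siglecg (-0.03 ± 0.24) and Ptpn11 (0.00 ± 0.07), the relatives of Cd22 and Ptpn6, did not pass.

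Downstream, 15 of 26 were lower in females and Akt1 was higher at 0.34 ± 0.10 (edgeR adjusted p = 0.0247). Malt1 and Bcl10, which carry the signal to NF-kB together, were lower at -0.69 ± 0.11 and -0.17 ± 0.06. Prkcb, which acts upstream of them, was at -0.33, and Ikbkb, Rel, Rela and Nfkb1 were at -0.66, -0.52, -0.33 and -0.24. On the calcium branch, Nfatc2 was at -1.32, Orai1 at -0.62, Itpr1 at -0.60, Itpr3 at -0.51 and Stim1 at -0.18, and Rasgrp3 and Dgka, which act on the Ras branch, were at -0.92 and -0.42. Of 14 induced genes only the costimulatory gene Cd86 (-1.47 ± 0.33) and the activation marker Cd83 (-0.81 ± 0.26) passed. The immediate early genes did not, with Egr1 at 0.17, Nr4a1 at -0.51 and Fos at -1.07.

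**Figure D5:**
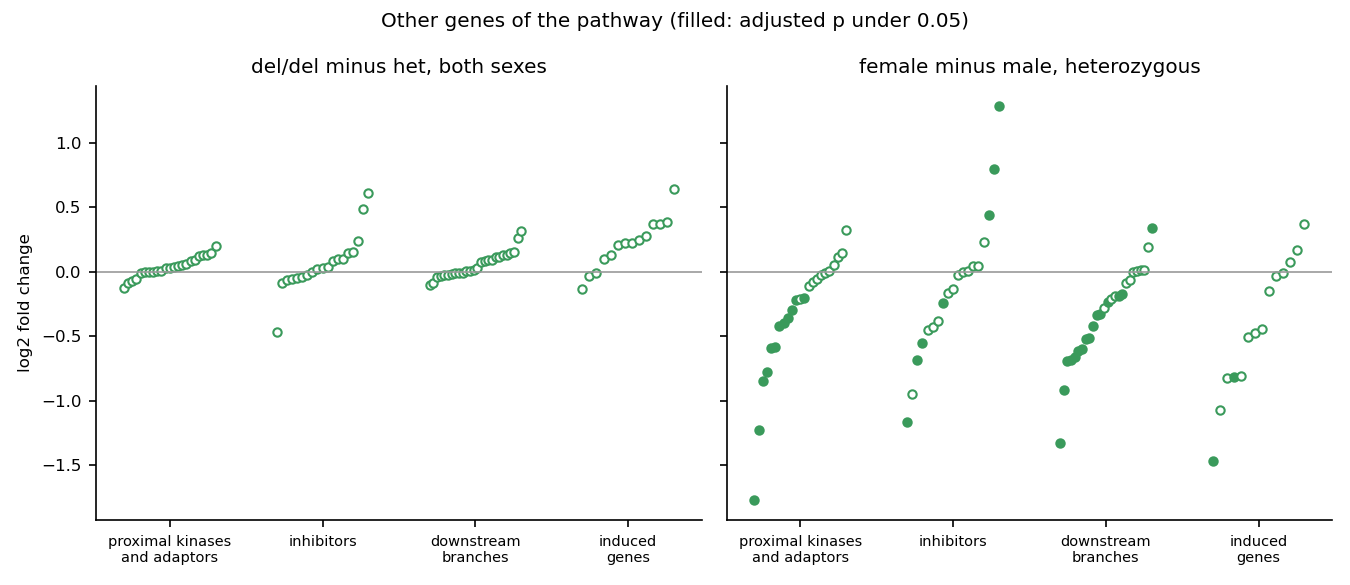
Log2 fold change of the other pathway genes by role, for del/del minus heterozygous over both sexes (left) and for female minus male in heterozygous mice (right), 1 point a gene and filled where the edgeR adjusted p was under 0.05. No point is filled on the left, and on the right 37 are, 33 of them below 0.

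The members also varied between mice of 1 group, and not as 1 block. The SD of log2 CPM within groups was 0.0629 for Plcg2, 0.0832 for Cd79b and 0.0887 for Cd79a, 0.117 for Lyn, 0.122 for Blnk, 0.158 for Syk, 0.159 for Ptpn6 and 0.293 for Cd22. The median of 232 genes in the members' range of levels was 0.158. Cd22 and Ptpn6 varied together: over 18 libraries, after subtracting group means, Pearson's r was 0.846 (adjusted p = 0.00812, 100000 permutations within groups, adjusted over 28 pairs of members) and Spearman's rho was 0.835 (adjusted p = 0.0154). Without the 2 libraries farthest from the median of Cd22, r was 0.779, and it was 0.825 in females and 0.878 in males. Cd79a and Plcg2 had r = 0.734 (adjusted permutation p = 0.0101) but rho = 0.647 (adjusted permutation p = 0.109), with r = 0.7 without the farthest 2 libraries. The other 26 pairs did not pass, among them Blnk and Ptpn6 (r = -0.692, adjusted permutation p = 0.0916) and Syk and Lyn (r = 0.624, adjusted permutation p = 0.172). Deviations of mice with neighbouring numbers correlated by 0.051 to 0.538, in pairs that the labels do not give. The libraries may thus not be fully independent, and these p-values may be too small.

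Libraries at the ends of the Cd22 and Ptpn6 range are given beside their marker sums. Del/del female 5, with Cd22 at 882 and Ptpn6 at 895 CPM, had mature B cell markers at 13770 CPM and myeloid markers at 5205. Del/del male 3, with Cd22 at 1310, Ptpn6 at 959 and the lowest Blnk at 402.5 CPM, had the highest myeloid sum, 6053 CPM. Del/del female 3, with Ptpn6 at 783 CPM, had a myeloid sum of 5214, and heterozygous male 3, with Cd22 at 1222 CPM, had a low one of 1836. Heterozygous female 2, with the lowest Cd22 at 456 and the lowest Ptpn6 at 590 CPM, had a myeloid sum of 3583, the highest of its group. In the order given, pro-B and pre-B markers summed to 2608, 1679, 3016, 2619 and 4022 CPM in these libraries. Cycling genes summed to 1798, 1317, 2566, 1603 and 3446 CPM. Both sums were the lowest of the group in del/del female 5 and del/del male 3, and the highest in heterozygous female 2. These libraries were picked by their values from different groups, with no group means subtracted. The part of myeloid cells, B cell stage or cycling in the joint variation was not tested.

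The antisense gene Gm20531 overlaps Ptpn6 and has its own row, with 8.33 to 10% of the Ptpn6 count per library. Whether reads were counted by strand is not given in the sources used here. Reads of the pair cannot be told apart. Lyn, Plcg2 and Cd22 also overlap antisense genes in GENCODE M21, none of which has a row.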

How the data were processed

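For each sex the authors deposited a table of raw counts and, per the file headers, log2 fold changes with p-values and F statistics of their own comparison. TopHat, Trim Galore, FastQC, bcl2fastq and edgeR 3.32.1, with builds mm10 and GRCm38, are named per the submitters' processing notes. The counting program and strand setting are not given in the sources used here. Of 25965 rows, 56 lacked a gene identifier and were kept, and 4 columns of group means were not used.

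Counts were tested as deposited with edgeR 4.0.16 in R 4.3.3 (filterByExpr, minimum count 10, TMM, quasi-likelihood F test, Benjamini-Hochberg adjustment over all genes tested). Each genotype comparison used its own sex. The fits over both sexes and between sexes used all 18 libraries. RPKM used union exon lengths from GENCODE M21. The alternatives were size factors by median ratio, DESeq2 1.42.0, limma 3.58.1 with voom, no filter, leaving out each library and a replicate block. The procedures were tested on simulated counts, where DESeq2 made a larger share of false calls than edgeR or voom in each comparison; it was kept, as an alternative only, under a tolerance widened after that result was seen.

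The members and gene lists were chosen with earlier results of these data known. The genes named were all 8 members, called genes of each pathway list (1 is not reported here), and otherwise the 4 with the smallest p over both sexes; Blk, Ms4a1, Pax5, Siglecg, Ptpn11 and 3 immediate early genes were added after their values were seen. The labels give each mouse its own number and no pairs. As a check, each del/del mouse was set beside the heterozygous mouse of the nearest number: their deviations correlated by 0.157 to 0.534 in the 4 male pairs and by 0.051 to 0.538 in the 5 female pairs.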

Additional observations from a re-analysis of the deposited data

Results flagged for a closer look

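In 3 of 32 combinations of member and group, 1 library stood apart from the others by Dixon's ratio of its gap to the range of the group, where chance gives about 1 in 20. Cd79a in heterozygous female 4 was at 1265 CPM, above the other 4 at 1127 to 1161 (ratio 0.752). Syk in heterozygous female 1 was at 2206 CPM, above 1902 to 1944 in the other 4 (ratio 0.862). Syk in del/del female 2 was at 2410 CPM, above 1919 to 2060 in the other 4 (ratio 0.713).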

How the results depend on the processing

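No member and no other pathway gene was called between genotypes under any alternative run, and the smallest adjusted p of a member was 0.614 in females, 0.838 in males and 0.457 over both sexes. The last 2 came from the fit with a replicate block of the nearest animal numbers, which changed no call. Estimates near 0 changed sign. In females Cd79a was at 0.0077 with median-ratio factors and DESeq2, 0.0075 without the filter and 0.0057 with all 18 libraries, and Cd79b at 0.0069, 0.0069, 0.0067 and 0.0049. Over both sexes Plcg2 was at 0.0016, 0.0019 and 7e-04 with median-ratio factors, DESeq2 and no filter. Leaving out 1 library, the sign changed within these ranges of log2 difference: in females Cd79a -0.0391 to 0.0394, Cd79b -0.0369 to 0.0336 and Lyn -0.0426 to 0.0641; in males Cd79a -0.0441 to 0.0095, Syk -0.0891 to 0.0627, Cd22 -0.0482 to 0.1958 and Ptpn6 -0.1154 to 0.0258; over both sexes Cd79a -0.0361 to 0.0096, Syk -0.0036 to 0.0626 and Plcg2 -0.0152 to 0.019. For the interaction they were Cd79a -0.0038 to 0.0829 and Cd22 -0.0514 to 0.2283, and between the sexes Syk -0.1062 to 0.0031. Between the sexes 4 to 6 members and 27 to 40 other pathway genes were called when 1 library was left out. With del/del in place of heterozygous mice, an alternative chosen after seeing the data, 3 members were called and Syk was at 0.0312; the cause was not tested. Over all genes DESeq2 called 92 in females against 34 by edgeR, 49 against 16 in males and 141 against 78 over both sexes. With all 18 libraries 58 were called in females, and leaving out 1 library gave 5 to 22 in males, with 5 without heterozygous male 1 or del/del male 3, 6 without del/del male 1, and 9 and 10 without male 4 of either genotype. With 4 or 5 mice a group, the intervals given limit what could be seen.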

Other observations

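The genes that varied most like the members were found by correlating the mean standardised log2 CPM of the 8 members with 9740 other genes over 18 libraries, after subtracting group means. The members themselves had not varied as 1 block, so this is a description only. The highest Pearson correlations were with Ubl7 (0.823), Ambra1 (0.822), Spna2 (0.763), Sik3 (0.751) and Galnt10 (0.742), and the lowest were with Vamp5 (-0.692), Usp46 (-0.679) and Gyk (-0.631). For Cd22 alone, a search added after its values were seen, the nearest genes were Ciita (0.936), the regulator of MHC class II genes, Irak1 (0.935), H2-Ob (0.933), Atp6v0a1 (0.926) and Nsmaf (0.924). For Blnk alone they were Nsmce4a (0.927), Tlk2 (0.91), Cops5 (0.91), Zranb1 (0.902) and Yeats4 (0.892).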
